A study of Rhodotorula toruloides with 2 samples.

Results

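Of 1402 genes listed in the authors' deposited table, 14 carried a KEGG description (a best match to a functional catalogue) worded for vesicle traffic, endocytosis or the cytoskeleton, and these are described here. They were found by searching that column for 24 terms, from clathrin, coatomer and Rab to actin, tubulin and septin. Of the listed genes, 706 had a KEGG description and 696 had none, and the search could not reach the latter. That search matched 16 genes, of which 2 were left out because their description also names an interacting protein or chromatin. Only 6 of the 24 terms matched a listed gene (syntaxin, ADP-ribosylation factor, dynein, actin, tubulin and dynamin), and "actin" also caught 3 dynactin genes. The name of the set is therefore wider than its content, which is 6 cytoskeleton genes (actin, beta-tubulin, dynein and dynactin), 6 membrane-traffic genes (dynamins, ARF-family GTPases and a syntaxin) and 2 others. The ARF-like 2 gene was placed with membrane traffic by its family, although in animals it takes part in the folding of tubulin dimers. Vesicle, Golgi, endosome, coat, clathrin, adaptor, exocyst, sorting nexin, vacuolar protein sorting, Rab, kinesin, myosin and septin genes matched 0 listed KEGG descriptions and are not part of the set. Golgi and Rab-related genes without a KEGG description appear by their BLAST description in the wider list below. The 2 others entered through the word "trans-acting" in the description of an enoyl reductase, which is an enzyme and no cytoskeletal protein. They are kept in the counts by the rule, and the main counts and sums are also given without them.

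The samples were wild-type Rhodotorula toruloides (also named Rhodosporidium toruloides) AS 2.1389, an oleaginous red yeast of the Basidiomycota, grown in chemostats, which are continuous cultures held at constant volume. There was 1 library of total RNA from the culture labelled Pi-limited (inorganic phosphate limiting) and 1 from the culture labelled Pi-replete. The library totals, recovered from the RPKM values, were 5892590 counts for the Pi-limited-labelled library and 5641377 counts for the Pi-replete-labelled library. With 1 library per condition the spread between cultures was not measured, no difference has a replicate check, and every 95% interval below covers counting error only. One feature of the pair bears on every direction: a sodium-dependent phosphate transporter (RHTO_01284), a kind of gene that fungi induce in phosphate shortage, had 22 counts in the Pi-limited-labelled library and 5797 counts in the Pi-replete-labelled library. In the labels, the description of the Pi-limited-labelled library also holds the word control. The direction of that gene ran against the labels. Whether the labels were exchanged cannot be settled from 1 library per condition, and an exchange would turn every direction given here. Directions are given by the label each library carries.

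In fungal cells, actin filaments at the cortex drive endocytosis and form the tracks on which secretory vesicles reach the growing bud. Microtubules, polymers of alpha- and beta-tubulin, carry the motor dynein, which with its activator complex dynactin moves nuclei and other cargo. Dynamin-family GTPases pinch or divide membranes, and many small GTPases of the ARF family act as switches in traffic. Syntaxins are SNARE proteins that fuse vesicles with their target membrane. In budding yeasts, actin-based polar growth builds the bud, and microtubules form the spindle.

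The most abundant of these transcripts, actin, was lower in the Pi-limited-labelled library, as were all 3 genes described as dynamin GTPases. Beta-tubulin, the dynein light chain, a pair of dynactin subunits, both ARF-family GTPases and the syntaxin were higher in that library. In all, 9 of the 14 genes (64.3%) were higher and 5 (35.7%) lower in the Pi-limited-labelled library. Among all listed genes, 58.3% were higher and 41.7% lower, so the share of higher genes is close to that of the list as a whole. Without the 2 enoyl reductases the split was 7 higher and 5 lower. The median log2 ratio (labelled Pi-limited over labelled Pi-replete) was 1.17 for the 14 genes and 1.10 for all listed genes. Centring on that listed median shifts each log2 ratio by -1.10, which left 1 gene at least 2-fold higher (the enoyl reductase RHTO_05094) and 5 lower. The other 8 genes called higher then had log2 ratios between 0.011 and 0.998: 0.158 for beta-tubulin, 0.115 for dynactin 4, 0.099 for ADP-ribosylation factor 6, 0.054 for the dynein light chain and 0.011 for ARF-like 2. These 8 genes were thus at least 2-fold higher with scaling by library totals and not with centring. The listed median is no measure of no change, however. With 58.3% of the list higher and no listed gene between -1 and 1, it had to lie above 1, and unlisted genes do not enter it. Every listed gene differed at least 2-fold because the table was filtered that way, and 17.6% of the 7970 genes the authors tested were listed.

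**Figure D1:**
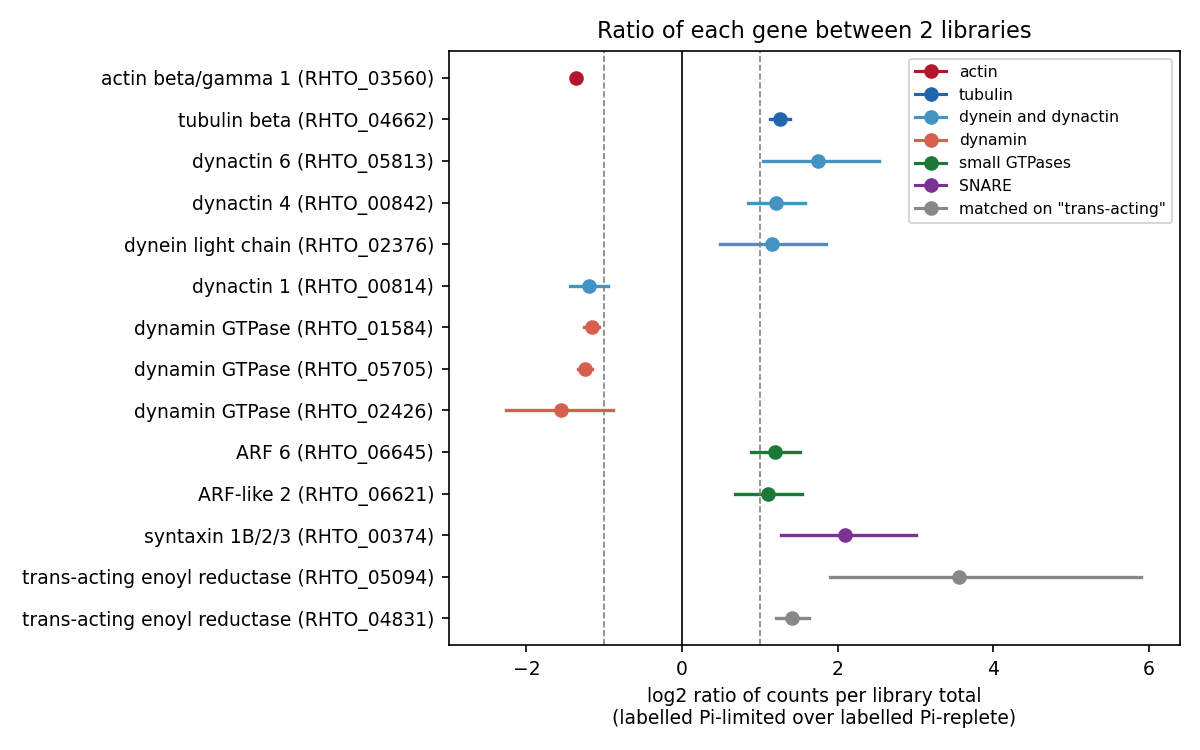
Log2 ratio of counts per library total, labelled Pi-limited over labelled Pi-replete, for the 14 genes grouped by function. Points are the ratios of 1 library over 1 library, horizontal lines are exact 95% intervals that cover counting error only, and dashed lines mark 2-fold. Actin, the gene described as dynactin 1 (RHTO_00814) and the 3 dynamin GTPases lie left of 0, and the other 9 genes lie right of it.

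By library totals, few of these genes were far past the filter. Of the 14 genes, 2 differed at least 4-fold, both higher in the Pi-limited-labelled library (the syntaxin, and the enoyl reductase RHTO_05094 with 37 counts in the Pi-limited-labelled library and 3 counts in the Pi-replete-labelled library), and 0 were at least 4-fold lower there. With median centring 1 was at least 4-fold higher and 5 were at least 4-fold lower. By library totals, 33.8% of all listed genes differed at least 4-fold, 14.1% higher and 19.8% lower. The median absolute log2 ratio was 1.25 for the 14 genes and 1.57 for all listed genes. The gene nearest to the authors' limit of 2-fold was the ARF-like GTPase RHTO_06621, with a log2 ratio of 1.11.

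**Figure D2:**
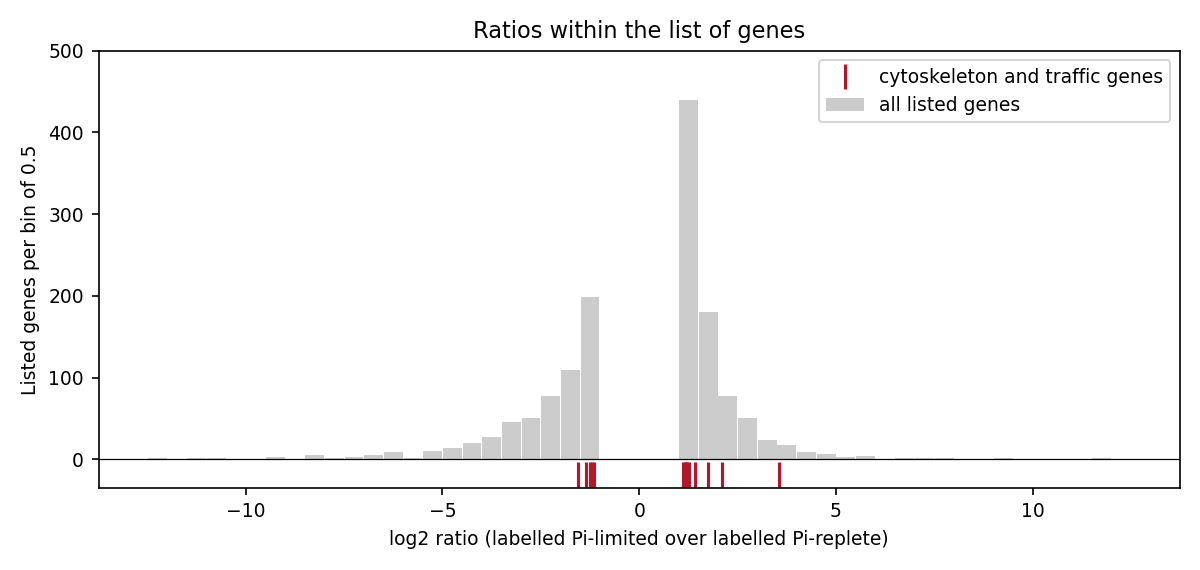
Number of listed genes per bin of 0.5 in log2 ratio, labelled Pi-limited over labelled Pi-replete (grey bars), with each of the 14 cytoskeleton and traffic genes as a red mark under the axis. The gap between -1 and 1 is the authors' filter. The red marks lie close to the gap, and 2 lie past a log2 ratio of 2, which is 4-fold.

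Actin (RHTO_03560, described as actin beta/gamma 1), the subunit of the filaments, had 11024 counts in the Pi-limited-labelled library and 27030 counts in the Pi-replete-labelled library. Scaled for gene length and library total, this was 1659 RPKM in the Pi-limited-labelled library and 4248 RPKM in the Pi-replete-labelled library. It was 2.56-fold lower in the Pi-limited-labelled library (95% interval 2.50 to 2.62), the narrowest interval of the 14 genes. Among the 1402 listed genes, actin ranked at place 10 by RPKM in the Pi-limited-labelled library and at place 3 in the Pi-replete-labelled library. Actin is often used as a reference transcript, and between these libraries it differed by more than the 2-fold limit of the table.

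Beta-tubulin (RHTO_04662), one of the paired subunits of microtubules, had 1685 counts in the Pi-limited-labelled library and 675 counts in the Pi-replete-labelled library, or 212 RPKM in the Pi-limited-labelled library and 88.6 RPKM in the Pi-replete-labelled library. It was 2.39-fold higher in the Pi-limited-labelled library (2.18 to 2.62). Actin and beta-tubulin thus had opposite directions. No listed gene was described as alpha-tubulin, so the microtubule subunits are represented by 1 gene. A ratio between genes of 1 library does not depend on the library total. The RPKM of actin was 7.83 times that of beta-tubulin in the Pi-limited-labelled library and 47.9 times in the Pi-replete-labelled library. The ratio of beta-tubulin to actin was 6.12 times higher in the Pi-limited-labelled library (5.58 to 6.72). This and the other ratios between genes given below were chosen after the values were seen, from 12 pairs computed. Because the filter kept only genes that differed at least 2-fold, a higher gene over a lower one differs at least 4-fold by construction. Such ratios are therefore no separate support for a difference. Genes of the same direction share the 2-fold limit. Of the 817 higher listed genes, 440 had log2 ratios between 1 and 1.5, and of the 585 lower ones, 199 lay between -1.5 and -1. Like folds within a direction are therefore common in the list.

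Dynein or dynactin was named in the descriptions of 4 genes, of which 1 (RHTO_00814, below) is doubtful. A roadblock-type dynein light chain (RHTO_02376), a subunit that binds the motor's intermediate chains, had 65 counts in the Pi-limited-labelled library and 28 counts in the Pi-replete-labelled library, 2.22-fold higher in the Pi-limited-labelled library (1.41 to 3.60). Dynactin 4 (RHTO_00842) had 218 counts in the Pi-limited-labelled library and 90 counts in the Pi-replete-labelled library, 2.32-fold higher in the Pi-limited-labelled library (1.81 to 3.00). Dynactin 6 (RHTO_05813) had 74 counts in the Pi-limited-labelled library and 21 counts in the Pi-replete-labelled library, 3.37-fold higher in the Pi-limited-labelled library (2.05 to 5.77). In animals both subunits sit at the pointed end of the actin-like filament of dynactin. Their intervals overlap, and the ratio of dynactin 6 to dynactin 4 was 1.45 times higher in the Pi-limited-labelled library with an interval of 0.83 to 2.64, which includes no difference.

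The gene described as dynactin 1 (RHTO_00814) had the other direction. It had 210 counts in the Pi-limited-labelled library and 459 counts in the Pi-replete-labelled library, and was 2.28-fold lower in the Pi-limited-labelled library (1.93 to 2.70). Dynactin 1 is the large subunit that in animals binds dynein and the microtubule. The best BLAST hit of RHTO_00814, however, is a tubulin-folding cofactor B, a protein that helps alpha-tubulin fold. The deposited length of RHTO_00814 was 762 bases, against 1851 for dynactin 4, which is short for a large subunit. The dynactin 1 description is therefore doubtful, and RHTO_00814 may not be a dynactin gene. Its sequence was not examined. Relative to RHTO_00814, dynactin 4 was 5.28 times higher (3.90 to 7.20) and dynactin 6 was 7.68 times higher (4.53 to 13.5) in the Pi-limited-labelled library. The ratio of beta-tubulin to RHTO_00814 was 5.45 times higher there (4.51 to 6.60). The filter alone puts each of these ratios at 4 or more.

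Both small GTPases were of the ARF family and both were higher in the Pi-limited-labelled library. ADP-ribosylation factor 6 (RHTO_06645), which in animals acts in endocytosis, recycling and cortical actin at the plasma membrane, had 285 counts in the Pi-limited-labelled library and 119 counts in the Pi-replete-labelled library. It was 2.29-fold higher in the Pi-limited-labelled library (1.84 to 2.86). ADP-ribosylation factor-like 2 (RHTO_06621), which in animals takes part in the folding of tubulin dimers, had 151 counts in the Pi-limited-labelled library and 67 counts in the Pi-replete-labelled library, 2.16-fold higher in the Pi-limited-labelled library (1.61 to 2.92). Their intervals overlap, and the ratio of the first to the second differed 1.06 times between the libraries (0.73 to 1.54). Against actin, ADP-ribosylation factor 6 was 5.87 times higher in the Pi-limited-labelled library (4.72 to 7.34), where the filter alone gives 4 or more.

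The only SNARE of the set was a gene described as syntaxin 1B/2/3 (RHTO_00374), whose counterparts in Saccharomyces cerevisiae sit in the plasma membrane and receive secretory vesicles. It had 67 counts in the Pi-limited-labelled library and 15 counts in the Pi-replete-labelled library, 4.28-fold higher in the Pi-limited-labelled library (2.42 to 8.06). Its level was low in both libraries, at 6.82 RPKM in the Pi-limited-labelled library and 1.59 RPKM in the Pi-replete-labelled library. The interval reaches below 4-fold but not below 2-fold.

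**Figure D3:**
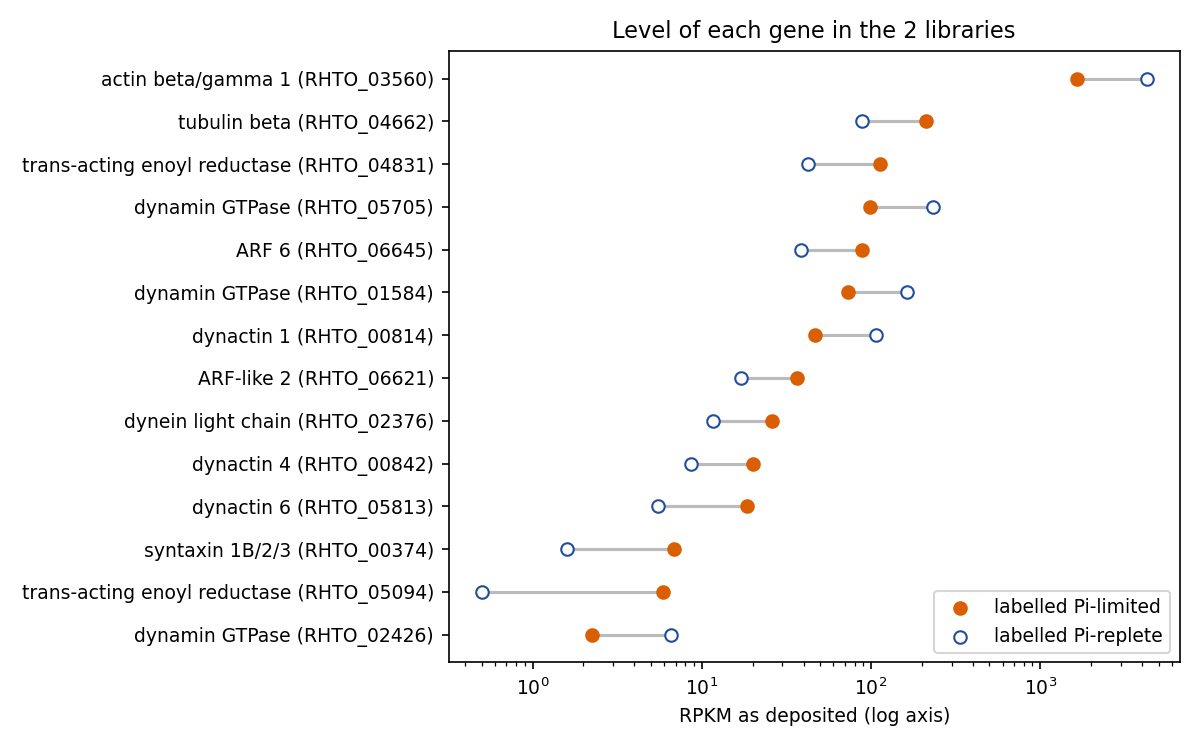
Deposited RPKM of the 14 genes on a log axis, in the Pi-limited-labelled library (filled orange) and the Pi-replete-labelled library (open blue), ordered by the level in the Pi-limited-labelled library. Actin is the highest in both libraries, at 1659 RPKM in the Pi-limited-labelled library and 4248 RPKM in the Pi-replete-labelled library. The open points lie right of the filled ones only for actin, the 3 dynamin GTPases and the gene described as dynactin 1 (RHTO_00814).

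The 3 genes described as dynamin GTPases were all lower in the Pi-limited-labelled library. In S. cerevisiae, dynamin-family proteins act in vacuolar protein sorting and in the division of mitochondria and peroxisomes, and the descriptions do not say which of these each gene resembles. RHTO_05705 had 1494 counts in the Pi-limited-labelled library and 3386 counts in the Pi-replete-labelled library, 2.37-fold lower in the Pi-limited-labelled library (2.23 to 2.52). Its BLAST description, a glycine/serine hydroxymethyltransferase, names an unrelated enzyme. The best BLAST hits of RHTO_01584 and RHTO_02426 are hypothetical proteins, so all 3 dynamin descriptions rest on KEGG alone. RHTO_01584 had 1236 counts in the Pi-limited-labelled library and 2642 counts in the Pi-replete-labelled library, 2.23-fold lower in the Pi-limited-labelled library (2.09 to 2.39).

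These dynamin genes differed by a like amount: the ratio of RHTO_05705 to RHTO_01584 was 1.34 in the Pi-limited-labelled library and 1.42 in the Pi-replete-labelled library by RPKM, a quotient of 0.94 with an interval of 0.86 to 1.03. Like folds are common among listed genes of the same direction, as given above. The third, RHTO_02426, was far less abundant, with 26 counts in the Pi-limited-labelled library and 73 counts in the Pi-replete-labelled library, 2.93-fold lower in the Pi-limited-labelled library (1.85 to 4.78). Its RPKM was 2.24 in the Pi-limited-labelled library and 6.57 in the Pi-replete-labelled library, while RHTO_05705 had 98.3 RPKM in the Pi-limited-labelled library and 233 RPKM in the Pi-replete-labelled library. Sequences were not compared, so whether the 3 genes share reads is not known.

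The 2 enoyl reductases, described as trans-acting partners of aspyridone synthetase, a polyketide-making enzyme of Aspergillus, were higher in the Pi-limited-labelled library. RHTO_04831 had 698 counts in the Pi-limited-labelled library and 250 counts in the Pi-replete-labelled library, 2.67-fold higher in the Pi-limited-labelled library (2.31 to 3.10). RHTO_05094 had 37 counts in the Pi-limited-labelled library and 3 counts in the Pi-replete-labelled library, 11.8-fold higher in the Pi-limited-labelled library (3.74 to 59.9). It is 1 of the 2 genes past 4-fold and the only one of the 14 with fewer than 50 counts in the library with more. Its second KEGG description is a quinone reductase.

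Counting genes and summing transcripts gave opposite directions. Summed over the 14 genes, there were 17270 counts in the Pi-limited-labelled library and 34858 counts in the Pi-replete-labelled library, 2.11-fold lower per library total in the Pi-limited-labelled library (2.07 to 2.15). Actin alone held 63.8% of that sum in the Pi-limited-labelled library and 77.5% in the Pi-replete-labelled library. Without actin the sum was 1.31-fold lower in the Pi-limited-labelled library (1.27 to 1.35). Without actin and the pair of abundant dynamin genes, the other 11 genes summed to 3516 counts in the Pi-limited-labelled library and 1800 counts in the Pi-replete-labelled library, 1.87-fold higher in the Pi-limited-labelled library (1.77 to 1.98). The 2 enoyl reductases made up 735 of these counts in the Pi-limited-labelled library and 253 in the Pi-replete-labelled library. Without them, the remaining 9 genes summed to 2781 counts in the Pi-limited-labelled library and 1547 counts in the Pi-replete-labelled library, 1.72-fold higher in the Pi-limited-labelled library (1.62 to 1.83). Actin and the dynamin genes were left out of these sums with their values known. The sum over 11 genes keeps all 9 higher genes of the set, each at least 2-fold higher by the filter. A higher sum there is therefore no separate support for a difference.

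**Figure D4:**
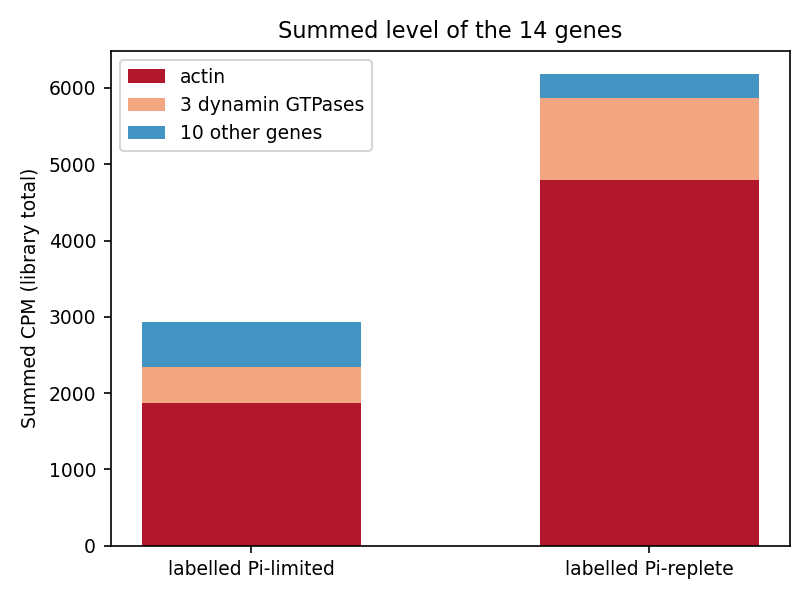
Summed CPM (counts scaled to the library total) of the 14 genes in the Pi-limited-labelled library (left) and the Pi-replete-labelled library (right), stacked as actin, the 3 dynamin GTPases and the 10 other genes, which include the 2 enoyl reductases. The whole bar is 2931 in the Pi-limited-labelled library and 6179 in the Pi-replete-labelled library. The part for the 10 other genes is 592 in the Pi-limited-labelled library and 306 in the Pi-replete-labelled library, or 468 and 261 in the same libraries without the enoyl reductases. The parts were chosen with the values known.

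By level, the order of the genes differed between the libraries. Beta-tubulin had the second highest RPKM of the 14 in the Pi-limited-labelled library and stood at place 5 in the Pi-replete-labelled library, while RHTO_05705 stood at place 4 in the Pi-limited-labelled library and at place 2 in the Pi-replete-labelled library. Actin (place 1), dynactin 4 (place 10), the dynein light chain (place 9) and ARF-like 2 (place 8) kept their places. The median level was 41.7 RPKM in the Pi-limited-labelled library and 27.8 RPKM in the Pi-replete-labelled library for the 14 genes. For all listed genes it was 21.3 RPKM in the Pi-limited-labelled library and 17.3 RPKM in the Pi-replete-labelled library.

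All 14 identifiers matched the RefSeq gene table of the RHOziaDV1.0 assembly of strain NP11, which served here for gene order alone. Of the 14 genes, 5 had a directly neighbouring gene in the list (35.7%), against 37.9% of all listed genes. These 5 had 7 listed neighbours, of which 5 had the direction of their partner (71.4%), against 65.6% over all listed neighbours of listed genes. The dynein light chain RHTO_02376 neighbours RHTO_02375, with 352 counts in the Pi-limited-labelled library and 142 counts in the Pi-replete-labelled library. Both carry the same best BLAST hit, and whether they are parts of 1 gene was not tested. Its neighbour on the other side, RHTO_02377, had the opposite direction, with 9 counts in the Pi-limited-labelled library and 60 counts in the Pi-replete-labelled library. The dynamin gene RHTO_01584 neighbours a DnaJ chaperone gene (RHTO_01583) with 505 counts in the Pi-limited-labelled library and 1441 counts in the Pi-replete-labelled library. The dynamin gene RHTO_02426 had listed neighbours of both directions, RHTO_02425 with a log2 ratio of -2.43 and RHTO_02427 with 2.15.

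A wider list of related genes was drawn from BLAST descriptions worded like the set and from regulators such as GTPase activators and exchange factors, actin-binding proteins, autophagy and phosphatidylinositol genes. It held 33 listed genes, 18 higher and 15 lower in the Pi-limited-labelled library, with a median log2 ratio of 1.04 against 1.10 for all listed genes. With median centring 15 lay above 0 and 18 below. Several entered by wording alone: 6 were pepsin-type aspartic proteases caught by "epsin", and 7 others were mostly enzymes with words such as "forming". When the list was divided by wording after its values were seen, 12 genes had a description of traffic or the cytoskeleton (5 higher, or 41.7%, and 7 lower). Of these, RHTO_00556 and RHTO_01211 have a KEGG entry for an enzyme. Another 8 belonged to the synthesis of the glycolipid (GPI) anchor of surface proteins (7 higher, or 87.5%, and 1 lower). Among all listed genes 58.3% were higher and 41.7% lower. With median centring the splits by sign became 4 above and 8 below 0 for the 12 genes, and 6 above and 2 below 0 for the 8 genes.

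Among the 3 genes per direction with the largest ratios and at least 50 counts, the autophagy-type protein RHTO_06993, related to a vacuolar amino acid exporter of S. cerevisiae, had 181 counts in the Pi-limited-labelled library and 23 counts in the Pi-replete-labelled library, 7.53-fold higher in the Pi-limited-labelled library (4.87 to 12.2). The aspartic proteases RHTO_00562 and RHTO_07125 were 7.22-fold and 6.20-fold higher there. A GPI glycosyltransferase of class A (RHTO_04165) had 2 counts in the Pi-limited-labelled library and 55 counts in the Pi-replete-labelled library, 28.7-fold lower in the Pi-limited-labelled library (7.58 to 243). A tubulin binding protein (RHTO_00834) had 72 counts in the Pi-limited-labelled library and 1924 counts in the Pi-replete-labelled library, 27.9-fold lower in the Pi-limited-labelled library (22.1 to 35.8). The lysine-pathway enzyme RHTO_03324, 16.1-fold lower, matched by wording only.

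The genes of that wider list named from here on were picked with their values known. A second gene described as a tubulin binding protein (RHTO_00693) had 122 counts in the Pi-limited-labelled library and 1296 counts in the Pi-replete-labelled library, 11.1-fold lower in the Pi-limited-labelled library (9.21 to 13.5). Both tubulin binding proteins thus had the direction opposite to beta-tubulin, and both had larger folds than every gene of the set with at least 50 counts, with intervals that lie above the 8.06-fold upper end for the syntaxin. On the actin side, an actin binding protein (RHTO_00077) had 74 counts in the Pi-limited-labelled library and 283 counts in the Pi-replete-labelled library, 3.99-fold lower in the Pi-limited-labelled library (3.08 to 5.23). A gene described as pan1 (RHTO_02532), which in S. cerevisiae is a scaffold linking actin assembly to endocytosis, was 2.42-fold lower there (1.99 to 2.96). Both had the direction of actin, while a fungal actin related protein (RHTO_01693) was 2.06-fold higher (1.65 to 2.60), with a log2 ratio of -0.053 after median centring.

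Of the microtubule and membrane regulators, a component of the gamma-tubulin complex (RHTO_01393), which nucleates microtubules, had 528 counts in the Pi-limited-labelled library and 216 counts in the Pi-replete-labelled library, 2.34-fold higher in the Pi-limited-labelled library (1.99 to 2.75). The direction was that of beta-tubulin. A GTPase-activating protein described as gyp7 (RHTO_01623), which in S. cerevisiae switches off the Rab GTPase of the vacuole, was 2.96-fold lower in the Pi-limited-labelled library (2.62 to 3.35). A Rab exchange factor (RHTO_05153), the opposite kind of regulator, was 2.46-fold lower there (2.16 to 2.82). A gene called a Sec63-domain protein by BLAST (RHTO_01211) was 3.75-fold lower there (3.51 to 4.01). Its KEGG entry is only an enzyme number and its length is 5436 bases, so a role in membrane traffic is not established. The Golgi membrane protein TVP38 (RHTO_02588) was 2.49-fold higher (1.84 to 3.41), as was a gene called Myosin 5 by BLAST but pyridoxine 4-dehydrogenase by KEGG (RHTO_00556, 2.91-fold, 2.11 to 4.08).

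**Figure D5:**
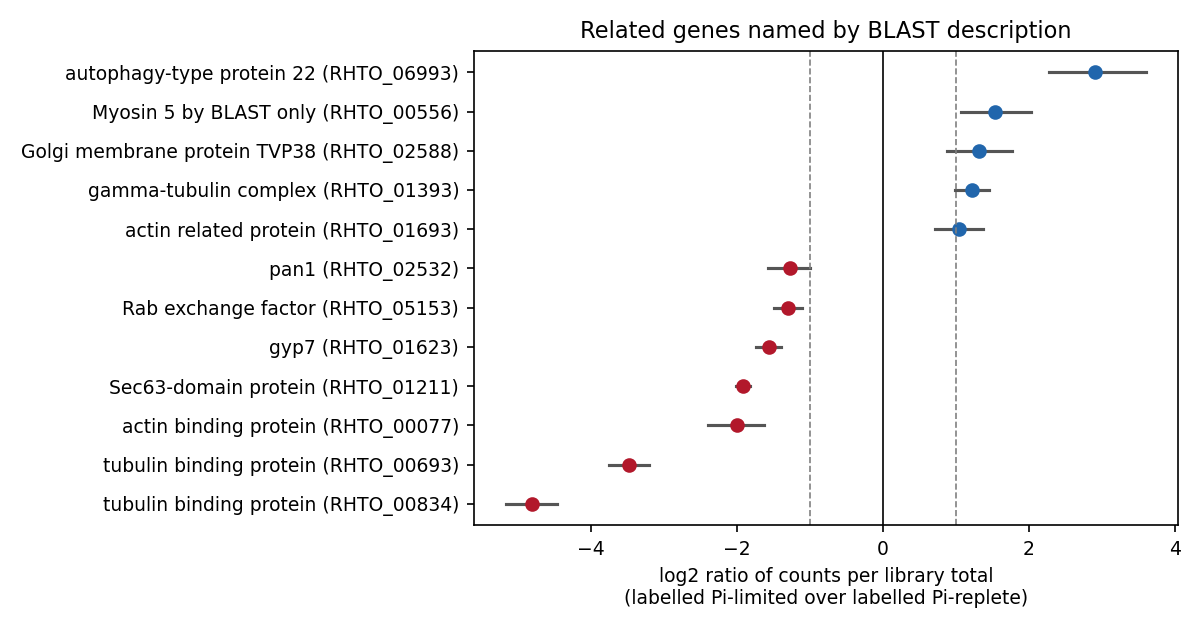
Log2 ratio of counts per library total, labelled Pi-limited over labelled Pi-replete, for the 12 genes of the wider list with a traffic or cytoskeleton description. Lines are exact 95% intervals that cover counting error only, and dashed lines mark 2-fold. The 5 genes in blue were higher and the 7 in red lower in the Pi-limited-labelled library, and both tubulin binding proteins lie past a log2 ratio of -3.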

How the data were processed

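The authors deposited 1 table of listed genes. Its columns, per the file headers, are a raw count for either library, RPKM, the log2 ratio, a p-value with its FDR, the gene length, and KEGG and BLAST descriptions. Per the submitters' processing notes, the tools include Cufflinks and DESeq, with no role or version. Aligner, genome build and strand setting are not given in the sources used. The authors' log2 ratio is labelled Pi-replete over labelled Pi-limited and was turned round here. The deposited p-value compares 2 libraries, not conditions, and was used only for the number of genes tested (from FDR and p) and as a filter. Library totals were recovered from count, length and RPKM. The table stops at a 2-fold difference and at an FDR of 0.001.

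Folds of counts per library total have exact 95% intervals (Clopper-Pearson on the conditional binomial). Intervals of a ratio between genes are exact conditional intervals of the odds ratio. The interval script was tested on simulated data (Python 3.11.15, scipy 1.17.1). No test between conditions was made, since each has 1 library. Members and lists were chosen with earlier results of these data known. Every member is named, and of the wider list the top 3 by ratio in either direction, from 50 counts up. A fold is given from 50 counts in the library with more, and for RHTO_05094 because it passes 4-fold. The planned roles put dynactin genes under other wording and the enoyl reductases under actin and myosin. The grouping in the text was made after the descriptions were seen. Without strand information, reads of overlapping genes cannot be told apart.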

Additional observations from a re-analysis of the deposited data

How the results depend on the processing

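No paired analysis was possible because each condition has 1 library. Centring ratios on the listed median moved each log2 ratio by -1.10 and left 1 gene at least 2-fold higher and 5 lower in the Pi-limited-labelled library, against 9 and 5 by library totals. Past 4-fold it left 1 higher and 5 lower, against 2 and 0, and the median log2 ratio became 0.076, against 1.17. The shift takes every lower listed gene past 4-fold, because the filter kept none closer to no change than 2-fold. The listed median itself is set by the filter and is no measure of no change. Setting the listed totals equal moved each ratio by 0.31, left 2 lower, and gave a median of 1.48. Unlisted genes are missing, so such a shift can only remove genes of 1 direction at 2-fold. By planned role, centring left 0 higher for the SNARE, microtubule, small GTPase and other-wording roles and 1 for actin and myosin. Equal totals left 1 lower for dynamin and 0 for other wording. A minimum of 50 counts left 1 gene past 4-fold and 1 higher in the actin and myosin role. A minimum of 100 counts left 5 higher and 0 past 4-fold. An FDR of at most 1e-10 left 4 higher, 4 lower and 0 past 4-fold. The median of 0.019 is then the midpoint across the gap of the filter, where no listed gene lies. Genes whose BLAST description also matched gave 3 higher, 1 lower, 1 past 4-fold and a median of 1.51. Leaving out the 2 enoyl reductases, added after the data were seen, left 1 past 4-fold and 0 higher in the actin and myosin role. For the wider list, centring left 6 higher, against 18.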
